A study of Homo sapiens with 4 samples.

Results

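LRRC49, CWC27, BCAR3, USP47 and NSUN6 are 5 protein-coding genes, of 20046 in the GENCODE annotation, with large numbers of BrdU peaks in synchronized BJ-hTERT cells. They were chosen by the peak list itself. LRRC49, CWC27 and BCAR3 overlapped the most peaks of any protein-coding gene, and USP47, LRRC49 and NSUN6 had the most peaks per 100 kb among the 3667 protein-coding genes over 100 kb. Their peak counts and densities are therefore a description, and no test was run on them. Together the genes held 298 of the 33295 peaks of the list, and 228 of the 25634 sites that remained when overlapping or touching peaks were merged.

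BJ-hTERT is a line of human foreskin fibroblasts immortalized with telomerase. The cells were synchronized by serum starvation and pulsed with BrdU, a thymidine analogue taken up into newly made DNA, before harvest at 16, 19, 22, 24 and 28 h after release, in 2 repeats, and no agent or genetic change set the timepoints apart. Peaks were called against Input DNA for each timepoint and repeat, and all stand in one list with neither a timepoint nor a repeat, so the list has no groups to compare, no replicate error and no depth. The 4 ChIP-Seq samples of RNAPII and PCNA at 14 and 16 h were not analysed here.

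A DNA replication fork copies whatever lies in its path, genes and the DNA between them alike, and a site where forks slow in many cells gathers more of a labelled nucleotide than its surroundings. Long genes consist mostly of introns, and one RNA polymerase needs far longer to cross them than a short gene, which is why long genes are often studied as places where transcription and replication meet. Tandem repeats, in which a short unit follows itself many times, are a different kind of difficulty for a fork, and also for the alignment of short reads.

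The products of the genes have little in common. LRRC49 encodes a subunit of the tubulin polyglutamylase complex, which adds glutamate chains to microtubules, and CWC27 a cyclophilin of the spliceosome. BCAR3 is an SH2 domain adaptor that binds the scaffold protein BCAR1, USP47 is a deubiquitinase that acts on the repair polymerase beta, and NSUN6 methylates cytosines in RNA. A list of 24 relatives of the members in these families and complexes was also counted. Of the 24, 4 overlapped a peak and 20 did not, against 21.2% of all protein-coding genes. The 4 were the polyglutamylase subunit CSTPP1 with 4 peaks, the cyclophilins PPIL1 with 1 peak and PPWD1 with 2, and the deubiquitinase USP48 with 5.

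The sequences under the most deeply stacked sites of CWC27, USP47 and NSUN6, that is the sites where most peaks cover one base, are shown first because NSUN6 stands apart from the other two by eye. Each is up to 300 bases from the centre of the most covered stretch, on the forward strand of hg38, with every GGAAT and its reverse complement ATTCC in capitals.

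CWC27, intron 10, chr5:64883562-64883757: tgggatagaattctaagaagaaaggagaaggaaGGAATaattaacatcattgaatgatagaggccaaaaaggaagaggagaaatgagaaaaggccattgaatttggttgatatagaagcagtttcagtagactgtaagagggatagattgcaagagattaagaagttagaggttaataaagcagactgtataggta

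USP47, intron 1, chr11:11865258-11865539: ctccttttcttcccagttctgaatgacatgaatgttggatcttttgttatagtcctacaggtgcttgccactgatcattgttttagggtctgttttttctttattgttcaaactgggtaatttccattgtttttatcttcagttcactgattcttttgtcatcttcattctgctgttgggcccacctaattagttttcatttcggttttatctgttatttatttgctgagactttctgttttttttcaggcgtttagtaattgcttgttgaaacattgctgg

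NSUN6, intron 8, chr10:18567180-18567479: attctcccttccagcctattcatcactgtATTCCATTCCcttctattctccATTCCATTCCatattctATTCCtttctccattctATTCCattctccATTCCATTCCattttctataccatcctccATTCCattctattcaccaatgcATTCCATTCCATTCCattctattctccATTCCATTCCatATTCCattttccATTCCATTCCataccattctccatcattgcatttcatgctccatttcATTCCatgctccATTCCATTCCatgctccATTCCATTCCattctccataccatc

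A further NSUN6 site, one of the 8 tandem arrays described below, is shown because it carries the same pentamer in the other orientation.

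NSUN6, intron 8, array, chr10:18557411-18557710: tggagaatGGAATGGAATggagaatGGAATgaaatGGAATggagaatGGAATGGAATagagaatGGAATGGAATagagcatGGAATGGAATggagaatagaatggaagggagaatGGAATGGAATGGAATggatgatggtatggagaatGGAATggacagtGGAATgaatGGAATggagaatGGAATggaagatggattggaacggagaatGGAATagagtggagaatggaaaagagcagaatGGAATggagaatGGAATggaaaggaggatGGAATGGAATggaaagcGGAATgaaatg

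In the stretches of CWC27 and USP47 the pentamer is rare. Over their whole sites it occurred 0.25 and 0.13 times per 100 bp, respectively. In the most deeply stacked sites of LRRC49 and BCAR3, which are not printed, it occurred 0.23 and 0.26 times per 100 bp. The NSUN6 sites printed had 6.98 and 8.08 copies per 100 bp, so that the exact pentamer made up 34.9% and 40.4% of their bases. The pentamer was picked after these sequences had been seen. It is the textbook unit of the human satellite DNA of classes 2 and 3.

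LRRC49, on the forward strand at chr15:70853239-71053658, had 73 peaks in 57 sites, the most peaks of any gene. This was 36.4 peaks per 100 kb, second to USP47. CWC27, on the forward strand at chr5:64766368-65102412, had 71 peaks in 57 sites, or 21.1 per 100 kb, which ranked 22nd. BCAR3, on the reverse strand at chr1:93561741-93847150, had 69 peaks in 62 sites, more sites than any other protein-coding gene over 100 kb, and 24.2 peaks per 100 kb, which ranked 14th.

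USP47, on the forward strand at chr11:11841423-11961887, was the densest gene over 100 kb, with 45 peaks in 34 sites and 37.4 peaks per 100 kb. NSUN6, on the reverse strand at chr10:18545561-18659285, had 40 peaks in 18 sites and 35.2 peaks per 100 kb. With LRRC49 these are the 3 densest genes, so calling all 5 the densest would not hold. CWC27 and BCAR3 owe their place to their number of peaks over 336.0 and 285.4 kb of gene.

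At or above the density of NSUN6 stood 3 of 3667 genes, or 0.0818%, and at or above the count of BCAR3 stood 4 of 20046, or 0.02%. The fourth was SAMD12, with as many peaks as BCAR3, 69, and 15.9 per 100 kb. Just outside, CEP63 followed NSUN6 with 33.3 peaks per 100 kb and SHROOM3 followed BCAR3 with 67 peaks. The median protein-coding gene over 100 kb had 0 peaks. Counting merged sites in place of peaks left LRRC49 and USP47 in the first ranks, with 28.4 and 28.2 sites per 100 kb, but moved NSUN6 from the 3rd to the 27th rank, with 15.8.

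The genes differed most in how their peaks were spread, as shown by the map of sites. In LRRC49, CWC27, BCAR3 and USP47 the sites ran across nearly the whole gene, and the span from the first to the last site was 196 of 200.4 kb, 320 of 336.0 kb, 257 of 285.4 kb and 108 of 120.5 kb, respectively. The fullest 20 kb held 20.5% of the peaks in LRRC49, 19.7% in CWC27, 15.9% in BCAR3 and 28.9% in USP47. In NSUN6 all 40 peaks lay within 20.4 kb, chr10:18552860-18573236, and the other 93.3 kb of the gene held none.

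**Figure D1:**
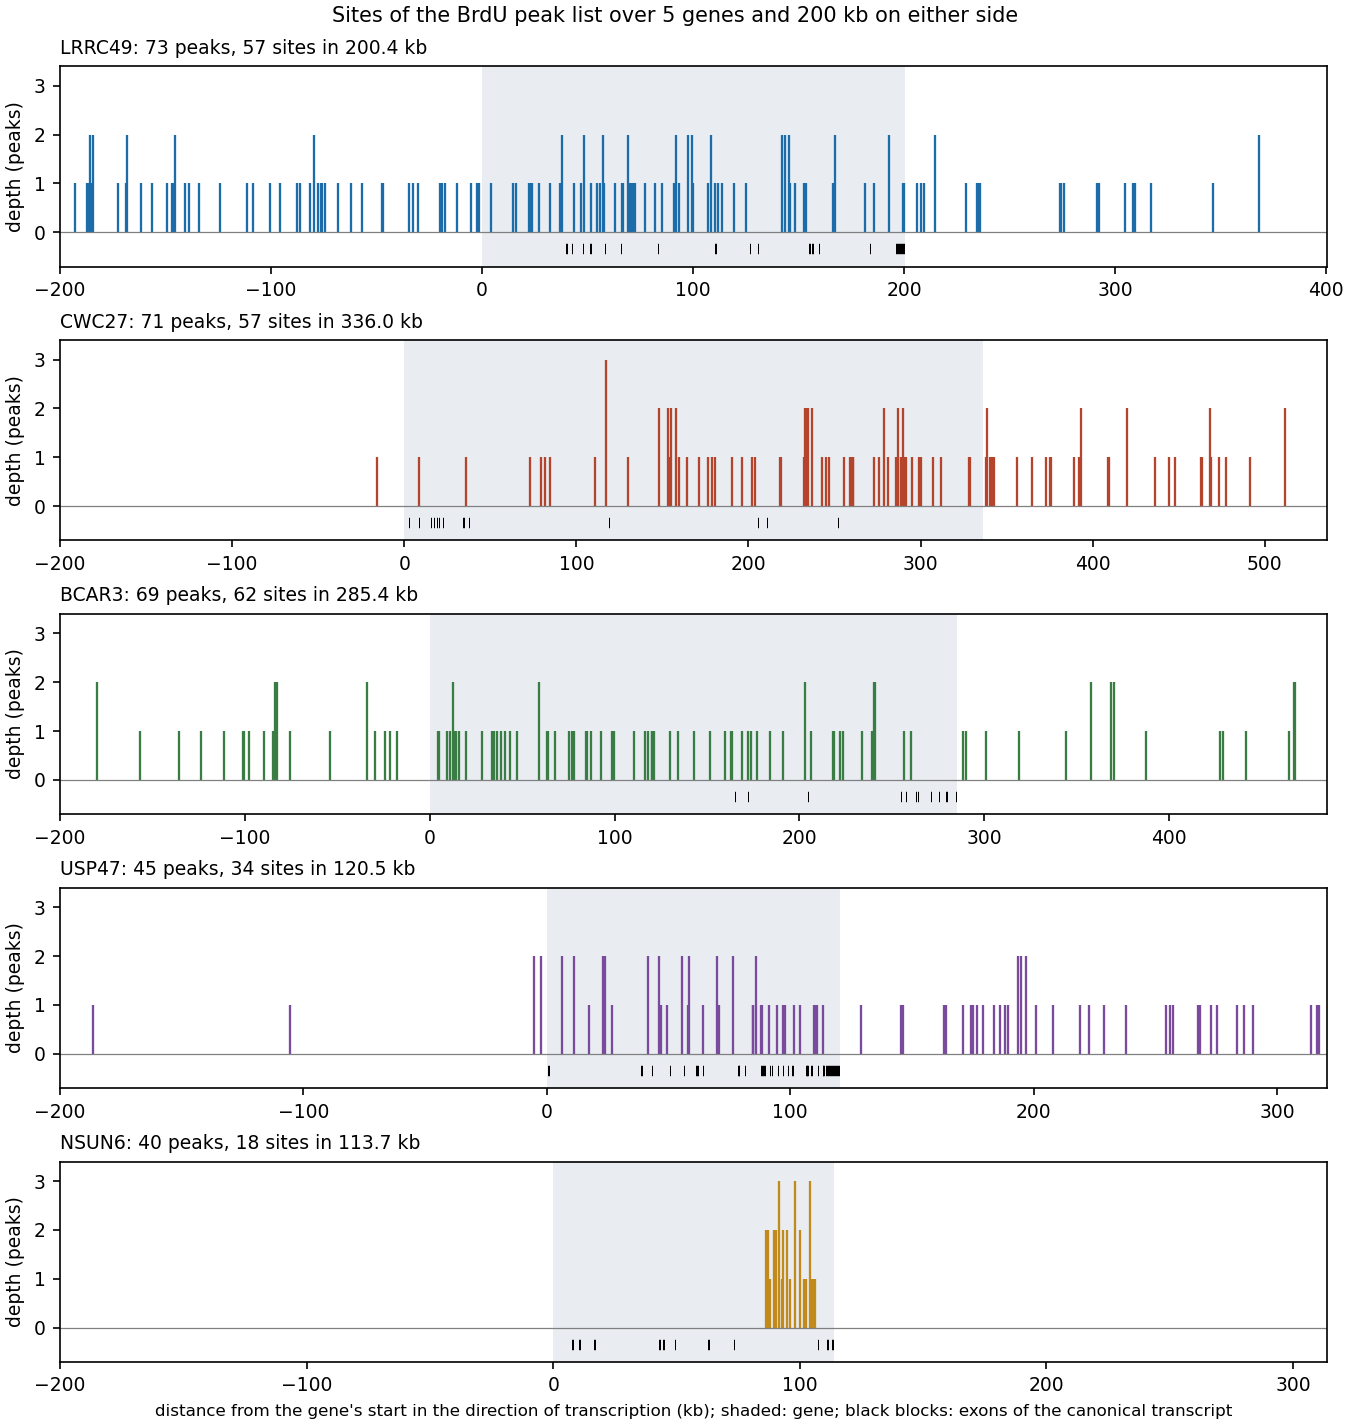
Sites in each gene and 200 kb on either side, against the distance from the gene's start in the direction of transcription (kb). The height of each line is the depth of the site (most peaks over one base), the gene is shaded and black blocks mark exons of the canonical transcript. The 18 sites of NSUN6 form one block with empty flanks, while those of the other genes are spread out, with further sites in their flanks.

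The plot of density against concentration sets this beside other long genes. Among 329 other protein-coding genes over 100 kb with at least 10 peaks, the fullest 20 kb held a median of 36.4% of the peaks, with a range of 11.5% to 100%. This set includes genes with far fewer peaks than the members. Of the other genes ranked up to 5 places after CWC27 by density, SHROOM3 and CAV2 had the most peaks, 67 and 62. Their fullest 20 kb held 19.4% and 17.7%, so a low share was not particular to the spread members. Besides NSUN6, 2 genes had all their peaks in 20 kb, EXD3 and PID1, with 11 peaks each. The window in NSUN6, with 40 peaks, was the fullest among genes over 100 kb. It was the fifth among windows of the genome that counted each peak once, after windows with 87, 54, 43 and 41 peaks. The fullest 20 kb held 15 peaks in LRRC49, 14 in CWC27, 13 in USP47 and 11 in BCAR3.

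**Figure D2:**
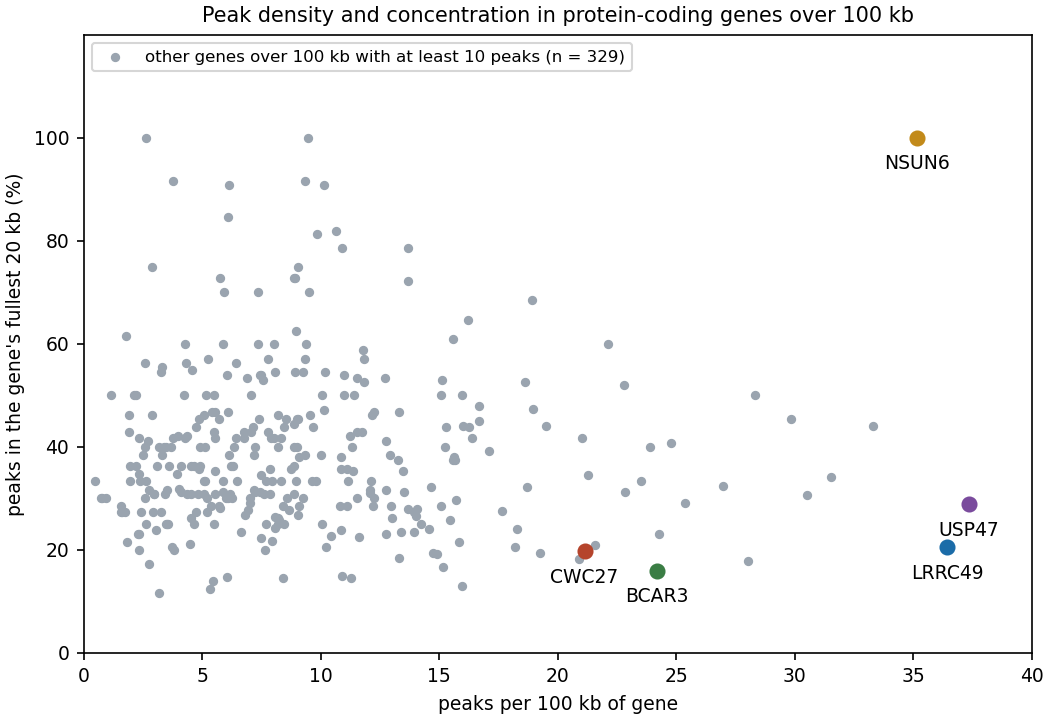
Peaks per 100 kb of gene against the share of the gene's peaks that lie in its fullest 20 kb, for protein-coding genes over 100 kb with at least 10 peaks. Grey points are the 329 other genes and coloured points the 5 named genes. NSUN6 lies at 100% and the other 4 between 15.9% and 28.9%.

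Within the genes, sites were placed intron by intron on the canonical transcript. Of the 228 sites 150 overlapped a canonical transcript, and of these 142 lay in introns and 8 over an exon. Of the 76 introns 34 held a site. Introns over 10 kb had 108 of the 142 sites, or 76.1%, close to their 76.3% of the intron length. Of these 18 introns 14 held a site.

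In LRRC49, 44 sites lay in 10 of 15 introns, among them all 6 introns over 10 kb. Intron 8, the longest with 27.0 kb, held 10 sites made of 16 peaks, and intron 7, with 17.6 kb, held 9. The most crowded was the short intron 5, with 5 sites in 6.78 kb or 7.38 sites per 10 kb. The other introns with a site ranged from 1.24 sites per 10 kb, in intron 14, to 5.12, in intron 7.

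In CWC27, 34 sites lay in 5 of 13 introns. The 86.2 kb of intron 11 held 16 sites and the 40.9 kb of intron 13 held 10. Intron 10 is nearly as long as intron 11, with 81.1 kb, but held only 6 sites. The 11.2 kb of intron 7 held none. In the 3 longest introns the sites per 10 kb were 0.74 in intron 10, 1.86 in intron 11 and 2.44 in intron 13. The short introns 2 and 9 held 1 site each, or 1.40 and 3.45 per 10 kb, and intron 12 held none.

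In BCAR3, the canonical transcript covers only 120.1 of 285.4 kb. It held 17 intronic sites, 9 of them in the 49.9 kb of intron 3 and 5 in the 32.3 kb of intron 2. The other 44 sites lay before it, in the part of the gene that only longer transcripts reach. On the longest annotated transcript all 44 were intronic, 39 of them in one intron of 139.4 kb, with 2.80 sites per 10 kb. Most BCAR3 sites thus lay in introns that only its longer transcripts contain.

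CWC27 and LRRC49 also had sites beyond the canonical transcript, 23 and 11. On their longest transcripts these were likewise all intronic. In CWC27 they fell in a last intron of 127.4 kb, which on that transcript held 33 sites. In LRRC49, 3 and 8 of them fell in the first introns of 19.4 and 20.4 kb.

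USP47 had 29 sites in 13 of its 27 introns. Its intron 1, 38.0 kb long and 34.5% of the intron length, held 6 sites and so 20.7% of the intronic sites. Short introns further on were more crowded, with 4 sites in the 7.39 kb of intron 3, 2 in the 2.06 kb of intron 18 and 3 in the 2.26 kb of intron 24. In NSUN6, all 18 sites lay in intron 8, which makes up 32.7% of the intron length. Its 3 other introns over 10 kb were empty.

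**Figure D3:**
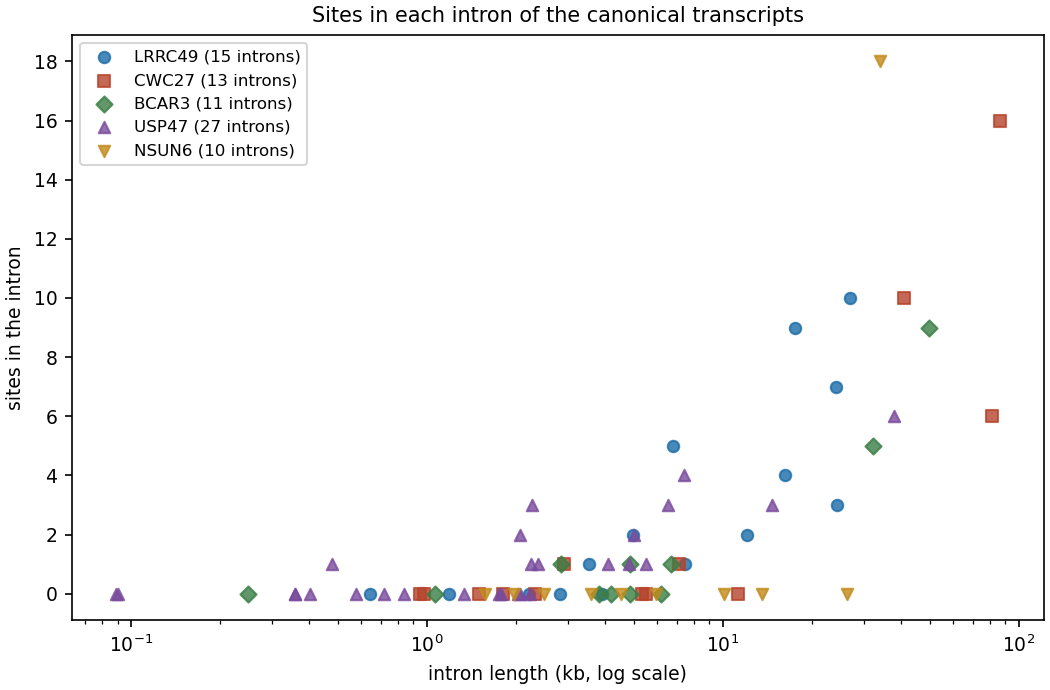
Number of sites in each intron of the canonical transcripts against intron length (kb, log scale), one symbol per gene. Intron 8 of NSUN6, at 34.0 kb and 18 sites, holds more sites than any longer intron of the other genes.

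The 8 sites over exons were 5.33% of the 150 sites in canonical transcripts. Over all canonical transcripts of protein-coding genes over 100 kb, 122 of 7166 sites, or 1.7%, overlapped an exon. USP47 accounted for 5 of the 8, over its coding exons 8, 12, 18, 20 and 27 of 28, and exons make up 8.33% of its canonical transcript. The site at exon 20 overlapped 386 coding bases and that at exon 8 overlapped 34.

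Both exonic sites of LRRC49 lay in the 3′ UTR within its last exon, 16 of 16. The one of BCAR3 overlapped 71 coding and 11 untranslated bases of exon 2. CWC27 and NSUN6 had none over a canonical exon.

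The distance between neighbouring sites was similar in the spread genes, with a median of 1.76 kb in LRRC49, 2.67 kb in CWC27, 2.77 kb in BCAR3 and 2.25 kb in USP47. The interquartile ranges overlapped widely, from 0.55 to 4.57 kb in LRRC49 and from 0.91 to 5.86 kb in BCAR3. In NSUN6 the median was 0.17 kb and the largest distance 1.23 kb. The largest empty stretch between sites was 16.6 kb in LRRC49, 36.7 kb in CWC27, 15.2 kb in BCAR3 and 14.3 kb in USP47.

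Close pairs were common all the same. Distances under 1 kb made up 22 of 56 in LRRC49, 16 of 56 in CWC27, 17 of 61 in BCAR3 and 12 of 33 in USP47. Merging sites within 1 kb left 35, 41, 45 and 22 sites in these genes, and 2 in NSUN6. Inside the genes, no site had its centre within 4 kb of the annotated start. The first centre inside lay 4.48 kb from the start in both LRRC49 and BCAR3, 6.09 kb in USP47, 8.78 kb in CWC27 and 86.4 kb in NSUN6. Just before the start, sites were centred at -2.39 and -1.59 kb in LRRC49 and at -2.38 kb in USP47. No share over other long genes is given for this measure.

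A single call by MACS2 normally gives peaks that do not overlap, so overlapping peaks of the list would come from different timepoints or repeats. Which ones they were cannot be told from the list. In NSUN6, 32 of 40 peaks overlapped another (80%), in USP47 22 of 45 (48.9%), in LRRC49 29 of 73 (39.7%), in CWC27 26 of 71 (36.6%) and in BCAR3 12 of 69 (17.4%). Over the 5 genes the share was 40.6%, and 34.5% without NSUN6, against 39.1% in the whole list.

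Sites with overlapping peaks numbered 51 of 228, or 22.4%, against a background of 20.9% of all sites, a share close to that of the list. Of these, 13 were in LRRC49, 12 in CWC27, 5 in BCAR3, 11 in USP47 and 10 in NSUN6. Nearly all were 2 peaks deep. A depth of 3 was reached at 1 site of CWC27, in intron 10, and at 3 sites of NSUN6. No site of the 5 genes was 4 or 5 deep, whereas 358 sites of the list were.

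The 11 stacked sites of USP47 all lay in its first 86.0 kb, and the 13 sites further on had one peak each. One NSUN6 site of 1718 bp, the one whose most covered stretch is printed in part above, joined 6 peaks. The single peaks of NSUN6 were also wider, with a median of 466 bp against 270 to 298 bp in the other genes.

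Tandem arrays were called where a peak's sequence, shifted by no more than 120 bp, equalled itself at 70% or more of the positions. There were 8 among the 18 sites of NSUN6 and none among the 210 sites of the other 4 genes, against 7.29% of all sites. Short tracts, here 20 bp or longer of a perfectly repeated unit no longer than 6 bp, were present in 9 NSUN6 sites and in no other, against 4.88% of all sites. All 9 tracts had a unit of 5 bp, and the longest was 22 bp. The longest perfect repeat in the other genes was 17 bp.

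The self-match of NSUN6 sites had a median of 69.4% and a highest value of 78.7%, while no site of the other genes passed 45.8%. Of the 3140 windows of 300 bp in those 4 genes, with or without peaks, none was an array. In NSUN6, 13 of 379 windows were arrays, of which 9 overlapped a peak and 4 did not. Of all 379 windows, 56 overlapped a peak. All peaks lay in the repeat block described below, and they covered 64.7% of it. Whether arrays overlapped peaks more often than the rest of that block was not tested. The array sites of NSUN6 best matched themselves at offsets of 17 bp in 4 sites and 95 to 114 bp in the other 4.

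Counts of the GGAAT pentamer along NSUN6 showed where this repeat begins and ends. In consecutive windows of 200 bp, 105 windows in a row had at least 4 copies per 100 bp of GGAAT or ATTCC, and none of the 463 windows in the rest of the gene did. The block so found, chr10:18552561-18573560, was 21.0 kb long, 18.5% of the gene. It contained 7.17 copies per 100 bp against 0.24 outside.

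All 40 peaks lay inside the block. The outermost peaks began 299 bp from one edge of it and ended 324 bp from the other, and no base under a peak fell outside. The peaks covered 64.7% of the block. In the list as a whole 385 of 25634 sites, or 1.5%, reached 4 copies per 100 bp, and all 18 NSUN6 sites were among them, with 6.53 to 8.73 copies.

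The block was not uniform in orientation. Read along the chromosome, it opened with 0.8 kb led by ATTCC, continued with 10.2 kb of GGAAT, in which 722 copies faced none of ATTCC, and closed with 10.0 kb of ATTCC, in which 723 copies faced 1 of GGAAT. Peaks lay in all 3 stretches, 1, 18 and 21 of them. Each of the 18 sites carried one orientation only, 8 of them GGAAT and 10 ATTCC. Over the whole block the sequence matched itself best at an offset of 17 bp, at 65.5% of positions, and next at 5 bp, at 59.5%.

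**Figure D4:**
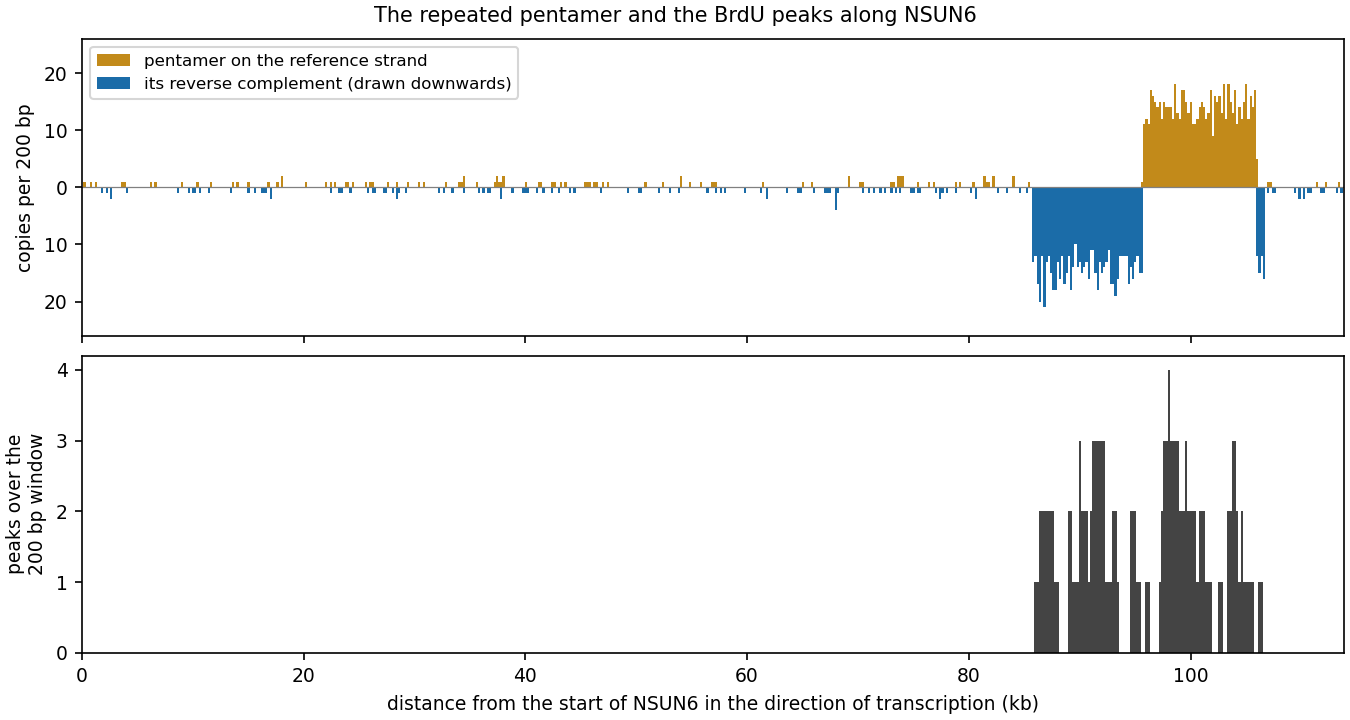
Copies of the pentamer per 200 bp window along NSUN6 (top, reference strand upwards and reverse complement downwards) and peaks over the same windows (bottom), against the distance from the gene's start (kb). The dense block of 21.0 kb and the 40 peaks occupy the same part of the gene.

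How well short reads can be placed differs with sequence of this kind. In NSUN6, 72.9% of the 32-mers under its sites occurred once in the genome, against 82.8% in the whole list, and no site consisted only of such 32-mers. All 18 sites shared at least one 20-mer with another NSUN6 site. Whether reads were placed in the wrong part of the block was not tested.

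In the other genes a smaller share of sites held 32-mers that were not unique. Sites with unique 32-mers throughout were 42 of 57 in LRRC49, 39 of 57 in CWC27, 48 of 62 in BCAR3 and 24 of 34 in USP47. Together these were 153 of 210 sites, or 72.9%, above the 49.6% of all sites. The share of unique 32-mers under their sites was 93.3%, 94.4%, 90.3% and 94.8%. Fewer than 50% of the 32-mers were unique in 5 sites of BCAR3 and 1 each of LRRC49 and CWC27. By this measure NSUN6 did not stand out, with 1 such site. That was 5.56% of its sites, against 8.06% in BCAR3 and 10.4% of all sites. At the most deeply stacked site, the widest at a tie, the share was 76.2% in LRRC49 and 45.2% in BCAR3. It was 100% in CWC27 and 96.2% in USP47. A 20-mer was shared with another site of the gene by 5 sites of LRRC49 and 4 of CWC27, and by none of BCAR3 or USP47.

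The AT content of the sites was 62.4% ± 4.41 (SD, n = 57) in LRRC49, where the gene has 61.8%, and 61.8% ± 3.84 (SD, n = 57) in CWC27, where it has 63.1%. It was 57.7% ± 5.37 (SD, n = 62) in BCAR3, against 54.9%, and 63.1% ± 2.53 (SD, n = 34) in USP47, against 64.4%. NSUN6 sites had 59.5% ± 1.16 (SD, n = 18), against 59.7%. The sites of BCAR3 were on average richer in AT than the gene, by 2.73 percentage points, and those of CWC27 and USP47 poorer. In LRRC49 and NSUN6 the differences were smaller, 0.59 and -0.28 percentage points. These differences were not tested.

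Whether the peaks stop at the gene's ends was asked in the 200 kb on either side. Pooled over the genes, there were 28.2 peaks per 100 kb inside and 9.85 in the flanks, a ratio of 2.86. Each of the 5 genes was denser than its flanks, as were 1101 of 3667 genes over 100 kb, or 30.0%. Only 1810 of the 3667 had a peak, and a gene without one could not be denser than its flanks. The members were chosen for a high density inside, so the direction of their ratios was fixed in part by the choice. The ratio was 2.00 in LRRC49, 2.56 in CWC27, 2.20 in BCAR3 and 3.18 in USP47, and the flanks of NSUN6 held no peak.

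**Figure D5:**
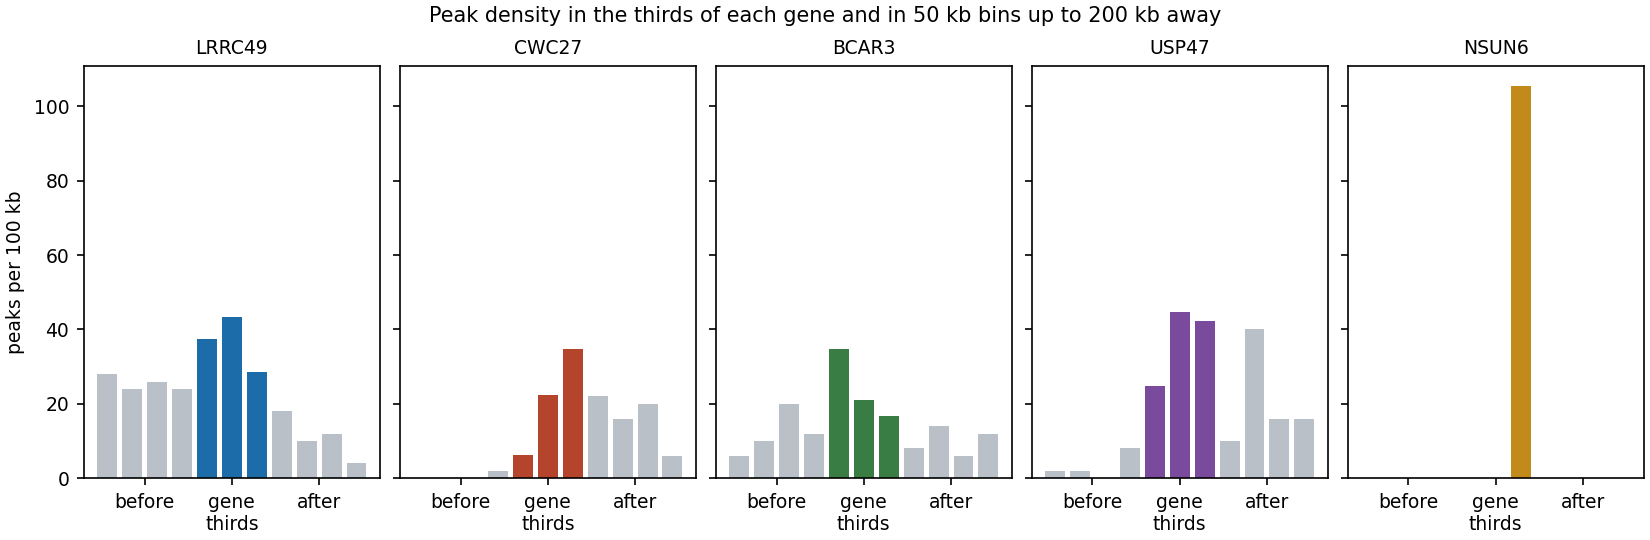
Peaks per 100 kb in 4 bins of 50 kb before each gene (grey), in the 3 equal parts of the gene (coloured) and in 4 bins of 50 kb after it (grey), in the direction of transcription. LRRC49 has a filled side before it, CWC27 and USP47 a filled side after them, and NSUN6 has none.

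LRRC49 lay in a field of peaks that did not respect its start. The 200 kb before it held 51 peaks and the 200 kb after it 22. Sites chained with gaps of at most 20 kb formed a run of 476 kb, which passed the gene's start by 240 kb and its end by 35.6 kb. The run took in LARP6, an RNA-binding protein gene transcribed the other way, with 7 peaks, and UACA, with 27 peaks, or 24.8 per 100 kb, 89.7 kb away.

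Within LRRC49 the peaks per 100 kb were 37.4, 43.4 and 28.4 in 3 equal parts from start to end. In each bin of 50 kb before the gene they were 24.0 to 28.0, and after it they went from 18.0 to 4.00. The gene THAP10, which lies inside LRRC49 on the opposite strand, overlapped 5 of the 73 peaks.

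CWC27 had an empty side and a filled side. The 200 kb before it held 1 peak, which overlapped its neighbour SREK1IP1, and the 500 kb before it held no more than that one. The 200 kb after it held 32. Density rose through the gene from 6.25 to 22.3 and 34.8 peaks per 100 kb in the 3 parts. Its first 6 sites fell into 3 short chains, with gaps of over 20 kb between them. The other 51 sites belonged to one run of 381 kb. It began 111 kb inside the gene and passed its end by 155 kb, into the metalloprotease gene ADAMTS6. The run covers only part of ADAMTS6, which had 34 peaks over its whole length.

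USP47 was asymmetric in the same direction. The 200 kb before it held 6 peaks and the 200 kb after it 41. The run began 5.52 kb before the gene, after 99.8 kb without a peak, and passed the end by 170 kb. It crossed LINC02547, with 12 peaks, and reached MICAL2, a gene for an actin-oxidizing enzyme. The run covers only part of MICAL2, which had 42 peaks over its whole length. DKK3, which overlaps the end of USP47, had 5. The parts of the gene had 24.9, 44.8 and 42.3 peaks per 100 kb, and the bin from 50 to 100 kb past the end had 40 per 100 kb.

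BCAR3 ran the other way. Its density fell from 34.7 to 21.0 and 16.8 peaks per 100 kb between start and end, and its flanks were nearly alike, with 24 peaks before and 20 after. All 62 sites formed one run of 257 kb, which began 4.31 kb inside the start and stopped 24.6 kb before the end. The gaps to the next sites were 21.8 and 27.2 kb, only a little over the limit. With gaps of up to 40 kb the run was 734 kb long and passed both ends. Of the 44 peaks in the flanks of BCAR3, 26 had their midpoint outside any annotated gene. Counted over whole genes, there were 10 peaks over FNBP1L, 7 over ABCA4, 3 over DNTTIP2, 3 over DR1 and 1 over GCLM. ABCA4 and DR1 extend beyond the 200 kb.

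NSUN6 stood alone at every distance tried. Its run of 20.4 kb lay 86.0 kb from the start and 7.30 kb from the end of the gene. The nearest sites outside were 924 kb away on the side of the start and 1172 kb away on the side of the end. Its neighbour CACNB2, 2.00 kb past its end, had no peak.

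At a gap of 20 kb, 3 of the 5 runs thus passed the gene's end, LRRC49, CWC27 and USP47, and 2 passed its start, LRRC49 and USP47. No run began and ended within 20 kb of the gene's 2 ends.

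The genes most like these by density, the 22 other genes ranked up to 5 places after CWC27, had 607 sites and served as a comparison. Stacked sites were 19.9% of theirs and 19.5% of those in LRRC49, CWC27, BCAR3 and USP47, and neither had an array. In other measures they differed, and no test was run. Sites with all 32-mers unique were 58.8% and 72.9%, sites with fewer than 50% unique 7.58% and 3.33%, and sites with a tract 4.45% (27 sites) and none. None of their sites reached 4 pentamers per 100 bp. Of these 22 genes, 4 lay within 1000 kb of a member on the same chromosome, UACA near LRRC49, ARHGAP29 and ABCD3 near BCAR3, and ERBIN near CWC27, at distances of 89.7, 302, 571 and 781 kb. The entry of NBPF14 in this ranking is uncertain, since near-identical copies of that gene exist.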

How the data were processed

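The BrdU-Seq libraries came from BJ-hTERT cells at 5 timepoints in 2 repeats. The authors aligned reads to hg38 with Bowtie2 and called peaks against Input DNA with MACS2 2.1.0, with model limits of 8 and 30 and a p threshold of 1e-05. The values they deposited are chromosome, start and end of each peak in bp. There is no score, signal, count, timepoint or repeat, so depth and its precision are unknown.

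Positions were taken as 0-based at the start and were printed 1-based. All peaks lay within the hg38 chromosome ends. Genes, canonical transcripts and exons came from GENCODE version 44. An overlap of at least 1 bp counted. The sequence measures were read from hg38, and 32-mers and 20-mers were counted over both strands. Counts and merges were checked against bedtools 2.31.1, and arrays, tracts and k-mers were tested on simulated data. Python 3.11.15, numpy 2.4.6, pandas 2.3.3 and numba 0.67.0 were used.

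The members, the lists of relatives and the measures were chosen with earlier results of these data known. The named genes are the members, genes with a peak within 200 kb of one, those ranked above a member or up to 5 places below the lowest, and the relatives. Some sequences and 1 neighbouring gene under this rule are not reported here. EXD3, PID1 and the pentamer were chosen after their values were seen. No groups of samples could be compared, no significance test was run, and no value has a replicate error. Alternatives were merged sites, peak midpoints, other gene length limits, flank lengths, gaps, array and tract limits, k-mer lengths and leaving out NSUN6.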

Additional observations from a re-analysis of the deposited data

How the results depend on the processing

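Of 76 alternative values for 27 measures, 42 stayed within the set limits and 34 moved, 21 of them for a single gene. The lowest rank of a member by density, 22, became 52 among genes over 50 kb, 4 among genes over 200 kb, which leave out USP47 and NSUN6, and 35 among all annotated genes over 100 kb. Growing outwards from the first and last site of each gene with gaps of up to 10 kb stopped near both ends in 2 genes, CWC27 and USP47, against 0 at 20 and at 40 kb, but at 10 kb the sites between were not one run in either gene. The share of sites in introns, 94.7%, was 87.3% when exons of any transcript of any gene counted. Peaks within 1 kb of another were 70.1%, against 40.6% that overlapped and 34.5% without NSUN6. Arrays numbered 16 at a self-match of 60% and 0 at 80%, against 8. Tracts numbered 69 at 12 bp and 0 at 30 bp, against 9. The median distance between sites, 1.92 kb, was 4.25 kb after merging sites within 1 kb. The share of unique 32-mers, 89.9%, was 71.1% for 20-mers. Leaving out NSUN6 moved the ratio of genes to flanks from 2.86 to 2.22 and left no array and no tract; this alternative was added after seeing the data. No paired analysis was possible because the peaks carry neither a repeat nor a timepoint. The unknown timepoint of each peak and the unknown depth limit every count given here.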
